A study of Mus musculus with 12 samples.

Results

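Nanog, Pou5f1, Sox2, Klf4, Klf2, Tbx3, Esrrb and Dppa3 encode factors that mark mouse embryonic stem (ES) cells, and their transcripts were followed here through 2 exposures to hydrogen peroxide. All 11 probe sets that the MG_U74Av2 platform annotation gives to these 8 genes alone were taken, of 12488 probe sets and 8251 named genes on the array. A probe set is a group of short oligonucleotides that together read 1 transcript. Of the 11, 9 passed the filter on dim probe sets and were tested, among 8695 tested in all, and each of the 8 genes kept at least 1 tested probe set.

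The RNA came from clone C2 of E14tg2a, a mouse ES cell line, in which 2 recognition sites for the endonuclease I-SceI had been placed, so every group shared this genotype and a single clone. One treated group stood in PBS with 100 µM H2O2 for 15 min (n = 4) and another in PBS with 5 mM H2O2 for 30 min (n = 5), each with 1 h of recovery in maintenance medium before RNA was extracted. The controls were kept in PBS (n = 3), and their time in PBS and any recovery in medium are not stated, so effects of peroxide and of the return to medium cannot be told apart in comparisons with PBS. Dose and exposure time differ together. Nothing says whether replicates were separate cultures. The p-values set differences between groups against the scatter of these samples within groups, and that scatter may be technical only.

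Naive mouse ES cells hold their state through a network of transcription factors that bind each other's genes. Pou5f1 (the protein Oct4) and Sox2 bind DNA as partners, Nanog stabilises the network, and Esrrb, Klf4, Klf2 and Tbx3 link it to outside signals. In mouse ES cells LIF acts through Stat3 on Klf4, and Tbx3 responds to other kinase pathways. Dppa3 (also called Stella) is a maternal-effect and germ-cell protein that varies from cell to cell in ES cultures and counters the maintenance of DNA methylation.

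After 100 µM H2O2 most of these transcripts stood apart from PBS, and not all in one direction. Tbx3, Klf4, Nanog, Sox2 and Klf2 rose and Dppa3 fell. Pou5f1 and Esrrb did not pass the test. Of the 9 tested probe sets 5 were higher and 1 lower, where 24.0% of all tested probe sets were called in this comparison, 12.8% as higher and 11.2% as lower. The median log2 change over the 9 was 0.59, beside 0.08 over all tested probe sets. Changes are on the log2(signal + offset) scale with an offset of 10.1 signal units, which understates the change of dim probe sets, and folds are taken from it. A call is an adjusted p under 0.05 in limma. Where groups are said not to overlap, the share of all probe sets that do the same was not counted. In these bulk samples, fewer cells of a type and less RNA per cell cannot be told apart.

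Tbx3, a T-box factor, had a signal of 596, 510, 571 and 503 on the 4 arrays of 100 µM, against 185, 158 and 146 on the 3 arrays of PBS. The groups were far apart, with every treated array above every PBS array. The means were 545 ± 45.8 after 100 µM and 163 ± 19.9 in PBS (SD, n = 4 and 3), and the log2 change of 1.69 ± 0.14 (SE) equals 3.22-fold (adjusted p = 2.8e-06). By size this was rank 62 among the 8695 changes of this comparison.

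Klf4, a Krüppel-like zinc-finger factor, had a signal of 3306, 3737, 3232 and 3244 after 100 µM, against 1232, 1354 and 1017 in PBS. Again no array of one group reached the other. The log2 change was 1.49 ± 0.13 (2.81-fold, adjusted p = 3.6e-06), at rank 121 by size. Klf2, its close relative and a partner with overlapping roles in ES cells, had 650, 356, 441 and 431 after 100 µM, against 259, 329 and 321 in PBS. The treated arrays were again all higher, but array 2 lay just above the PBS range. The log2 change was 0.59 ± 0.17 (adjusted p = 0.021).

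Nanog, a homeodomain factor, was read by a bright and a dim probe set. The bright one, 161072_at, had a signal of 5378, 6017, 6207 and 5088 after 100 µM, against 3788, 3310 and 3284 in PBS. All treated arrays were higher, and the log2 change was 0.71 ± 0.13 (1.64-fold, adjusted p = 0.0011). The dim one, 161653_f_at, whose f marks probes that match a family of similar sequences, had 402, 190, 214 and 179 after 100 µM, against 216, 96.0 and 170 in PBS. These groups overlapped, and its log2 value of 0.58 ± 0.27 did not pass (adjusted p = 0.14).

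Sox2, an HMG-box factor, was read by a single probe set, 100009_r_at, whose r marks probes picked under relaxed rules. Its signal was 5713, 6099, 6516 and 4202 after 100 µM, against 4034, 3124 and 3788 in PBS. The treated arrays were all higher, array 4 only slightly so. The log2 change was 0.61 ± 0.15 (1.53-fold, adjusted p = 0.0095).

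Dppa3 moved the other way. Its signal was 13.6, 28.8, 33.7 and 17.4 after 100 µM, against 84.3, 85.3 and 76.5 in PBS. Every treated array lay below every PBS array, and the treated values came close to the offset. The log2 change was -1.51 ± 0.23 (2.84-fold lower, adjusted p = 3.5e-04). It was -1.91 with a floor at the offset in place of adding it and -0.95 with 4 times the offset, called under both, so the direction was firm and the size was not.

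Pou5f1, the POU-domain factor at the centre of the network, had a signal of 5437, 3326, 4683 and 5068 after 100 µM, against 3291, 4567 and 5098 in PBS. The groups overlapped over nearly their whole range, with 1 low array in each. The log2 value was 0.10 ± 0.18 (adjusted p = 0.73). Esrrb, an orphan nuclear receptor, had 169, 43.9, 106 and 266 after 100 µM, against 31.0, 138 and 128 in PBS. It had the widest relative spread of the tested probe sets, with a coefficient of variation of 64.9% after 100 µM and 59.8% in PBS. Its log2 value was 0.49 ± 0.48 (adjusted p = 0.50), so a change of the size seen for Nanog was not detectable here.

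The calls of Tbx3, Klf4, Dppa3 and the bright Nanog probe set held under all 23 alternatives for this comparison. That of Sox2 was lost after scaling all arrays to 1 common median (adjusted p = 0.12) or without PBS replicate 2 (0.055), and that of Klf2 with the common median (0.068), with the compared groups fitted alone (0.054), or without PBS replicate 1 (0.081) or 100 µM replicate 1 (0.054).

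**Figure D1:**
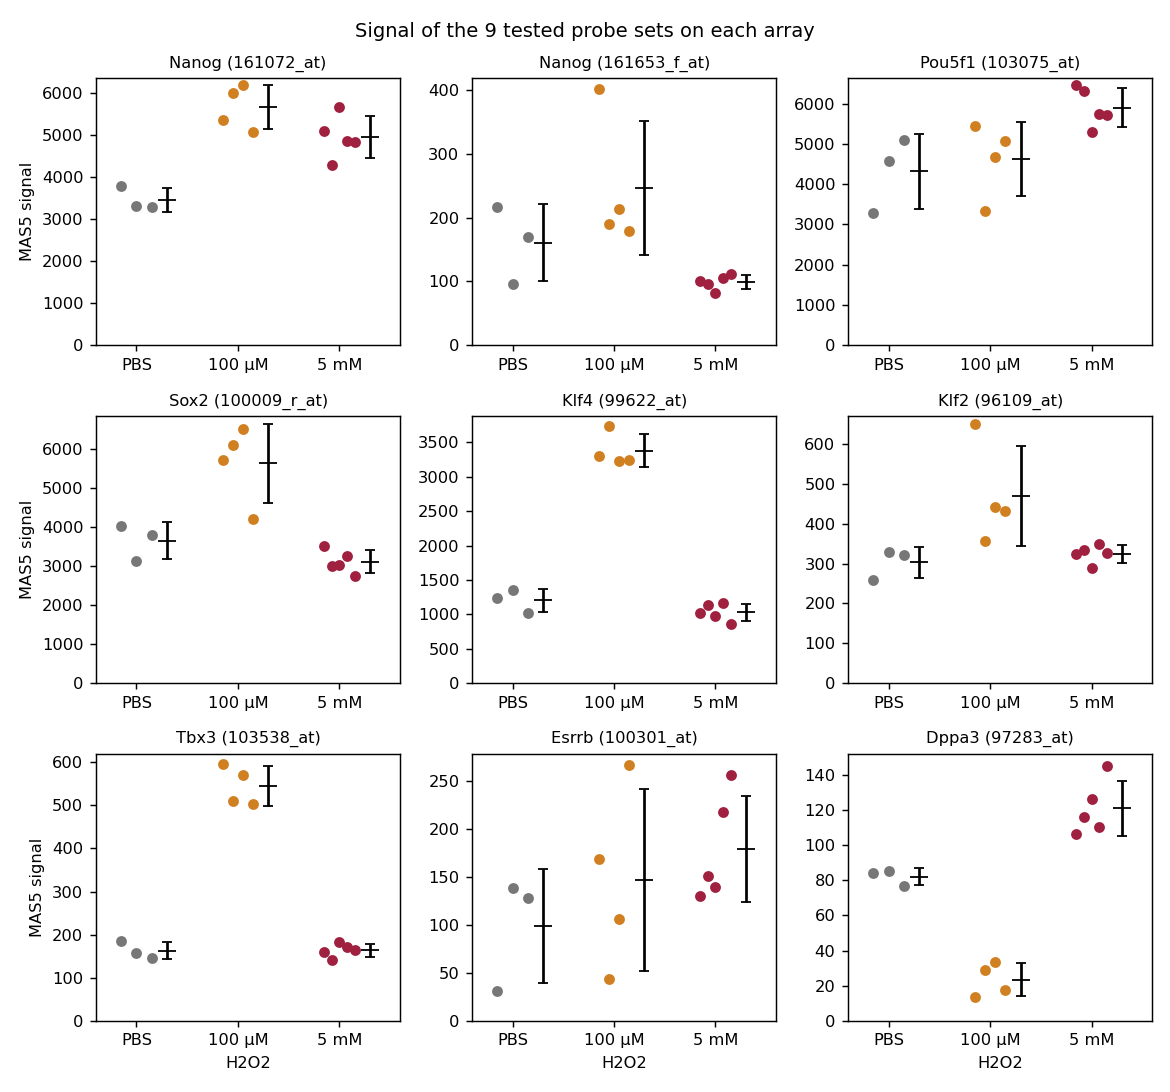
MAS5 signal (linear axis from 0) of the 9 tested probe sets on each of the 12 arrays by H2O2 treatment, with the mean and SD of each group as a black bar. Tbx3 and Klf4 stand high only among the 4 arrays of 100 µM and Dppa3 stands low only there, while Pou5f1 and Esrrb overlap between 100 µM and PBS.

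Both Nanog and Sox2 are known targets of the Pou5f1 and Sox2 proteins, which bind an octamer beside a Sox site, and their promoter windows from RefSeq (build GRCm38.p6) are shown because both transcripts rose after 100 µM and because these are the members whose windows hold the octamer core. RefSeq promoters, 300 bases each, were at hand for 6 of the 8 genes in 9 windows. Capitals mark matches, on either strand, to ATGCAAA (octamer core), CATTGT (Sox core), GGGNGTGG (Klf site) or CAAGGTCA (Esrrb site). The Nanog window is chr6:122707315-122707614, plus strand, and the Sox2 window is chr3:34649745-34650044, plus strand, each printed 5′ to 3′.
Nanog: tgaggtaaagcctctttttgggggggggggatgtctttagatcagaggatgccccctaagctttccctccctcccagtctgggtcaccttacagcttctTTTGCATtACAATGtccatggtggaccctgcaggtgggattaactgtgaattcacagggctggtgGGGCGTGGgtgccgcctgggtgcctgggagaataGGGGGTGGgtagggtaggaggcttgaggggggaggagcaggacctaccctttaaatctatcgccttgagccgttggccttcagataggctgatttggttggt
Sox2: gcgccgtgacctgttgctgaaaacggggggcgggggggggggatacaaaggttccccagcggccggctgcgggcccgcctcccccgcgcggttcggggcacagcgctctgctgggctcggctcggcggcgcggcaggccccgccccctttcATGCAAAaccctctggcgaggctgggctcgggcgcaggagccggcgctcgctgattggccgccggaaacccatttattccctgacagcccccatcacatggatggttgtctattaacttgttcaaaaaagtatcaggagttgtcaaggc

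In the Nanog window the octamer core lay at positions -151 to -145 and the Sox core at -143 to -138, both on the minus strand and 1 base apart, counted from 0 at the first transcribed base. Klf sites followed at -86 to -79 and -52 to -45. The other Nanog start in RefSeq lies upstream, and its window holds the same 4 matches at other distances from the start. In the Sox2 window an octamer core at -99 to -93 stood alone. Pou5f1 had a Klf site at -80 to -73 from one start and a Sox core at -158 to -153 from another, Esrrb a Sox core at 32 to 37, and the windows of Klf4 and Klf2 had none of the 4. Over all 32851 windows, 4.63% hold the octamer core, 12.6% the Sox core, 17.6% the Klf site and 1.56% the Esrrb site. These matches describe letters only and show no binding.

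**Figure D2:**
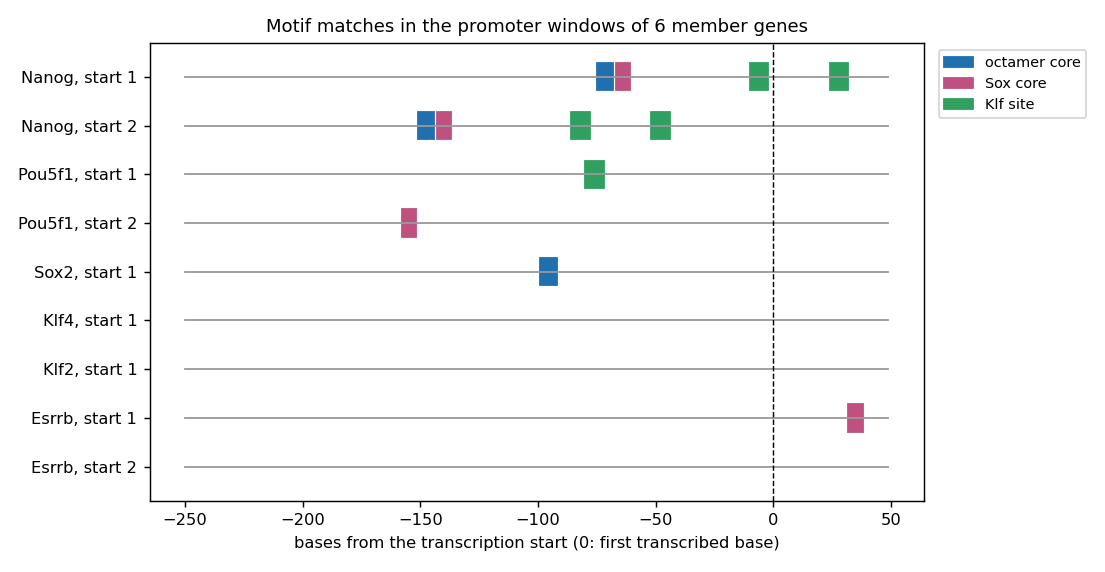
Positions of the motif matches in 9 promoter windows of 6 genes, in bases from the transcription start (dashed line). The octamer core and Sox core stand side by side in both Nanog windows; Klf4, Klf2 and the second Esrrb window carry no match.

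After 5 mM H2O2 few of these transcripts passed the test against PBS, a share near that of all tested probe sets. The bright Nanog probe set rose and the other 8 tested probe sets did not pass. That is 1 of 9, where 11.7% of all tested probe sets were called in this comparison, 5.68% as higher and 6.03% as lower. The median log2 change was 0.10 over the 9 and 0.01 over all tested probe sets, and the median absolute change was 0.47 over the 9 and 0.26 over all. Members pointed both ways, and a missed threshold does not show that they stayed at their PBS level.

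The bright Nanog probe set had a signal of 5114, 4298, 5667, 4864 and 4850 after 5 mM, against 3284 to 3788 in PBS. No array overlapped, and the log2 change was 0.51 ± 0.12 (1.43-fold, adjusted p = 0.012). The dim Nanog probe set pointed down, with 99.9, 95.7, 81.6, 105 and 112 after 5 mM, against 96.0 to 216 in PBS. Its log2 value of -0.59 ± 0.26 did not pass (adjusted p = 0.16), so the Nanog probe sets disagreed in sign here and the rise rests on the bright one.

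Pou5f1 had a signal of 6468, 6304, 5289, 5743 and 5713 after 5 mM, against 3291, 4567 and 5098 in PBS. Every treated array was above every PBS array, yet the log2 value of 0.47 ± 0.17 did not pass (adjusted p = 0.082). It was 0.29 without PBS replicate 1, passed without 100 µM replicate 2 (adjusted p = 0.045) and turned to -0.16 after quantile normalization. Sox2 had 3514, 3003, 3014, 3260 and 2746 after 5 mM, against 3124 to 4034 in PBS. The groups overlapped in part, with a log2 value of -0.23 ± 0.15 (adjusted p = 0.35). After quantile normalization that value was -0.46 and after cyclic loess -0.51, and both passed (adjusted p = 0.012 and 0.013).

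Tbx3 and Klf4, which rose most after 100 µM, gave no call here. Tbx3 had 160, 141, 182, 172 and 164 after 5 mM, against 146 to 185 in PBS, a log2 value of 0.01 ± 0.13 (adjusted p = 0.98). Klf4 had 1021, 1128, 968.5, 1166 and 862.5 after 5 mM, against 1017 to 1354 in PBS, a value of -0.22 ± 0.13 (adjusted p = 0.29). Klf2 had 324, 333, 288, 348 and 327.5 after 5 mM, against 259 to 329 in PBS, a value of 0.10 ± 0.16 (adjusted p = 0.75). In all 3 the groups overlapped.

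Dppa3 had 107, 116, 126, 111 and 145 after 5 mM, against 76.5 to 85.3 in PBS. All treated arrays were higher, but the log2 value of 0.50 ± 0.22 did not pass (adjusted p = 0.16). Esrrb had 129.6, 151, 139, 218 and 256 after 5 mM, against 31.0 to 138 in PBS. The groups overlapped, PBS replicate 1 was the low PBS array, and the value was 0.95 ± 0.46 (adjusted p = 0.20). Without PBS replicate 1 it was 0.35.

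The rise of Nanog was lost after quantile normalization (log2 value 0.24), cyclic loess (0.20) and scaling to a common median (0.44), and without PBS replicate 2 (0.48) or PBS replicate 3 (0.48). The number of all probe sets called, 1018, was 490 without PBS replicate 2 and 599 without PBS replicate 3.

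The groups also differed at the top of the scale. The brightest probe set on an array read 19733 to 34685 after 5 mM and 14976 to 24225 after 100 µM, against 7206 to 8904 in PBS. Among 417 probe sets outside the members with a mean signal above 2000, the median log2 change was 0.25 after 5 mM and 0.08 after 100 µM, both against PBS, where all tested probe sets had 0.01 and 0.08. Of these 417, 141 were called after 5 mM, 135 of them higher, and 167 after 100 µM, 111 of them higher. Over all 8695 tested probe sets, 494 (5.68%) were called higher after 5 mM and 1110 (12.8%) after 100 µM. Higher calls were thus more frequent at the bright end in both comparisons. The bright probe sets of Nanog, Pou5f1 and Sox2 are in that range. The part of the bright end in their values was not tested beyond the scalings given. Scaling to a common median moved the median change of all probe sets by -0.17 for 100 µM against PBS and by 0.11 for 5 mM against 100 µM. It turned the split of higher and lower calls to 311 and 614 (with the deposited scaling 494 and 524) for 5 mM against PBS, to 574 and 1497 (1110 and 977) for 100 µM against PBS, and to 1412 and 871 (1113 and 1272) for 5 mM against 100 µM. Arrays of one group correlated at 0.966 to 0.981 and arrays of different groups at 0.945 to 0.969 across probe sets. Control probe sets at both ends of Actb gave a ratio of 3′ to 5′ signal of 1.05 to 1.49 after 5 mM, 1.11 to 1.49 after 100 µM and 0.871 to 1.99 in PBS, where replicate 1 gave the highest value.

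**Figure D3:**
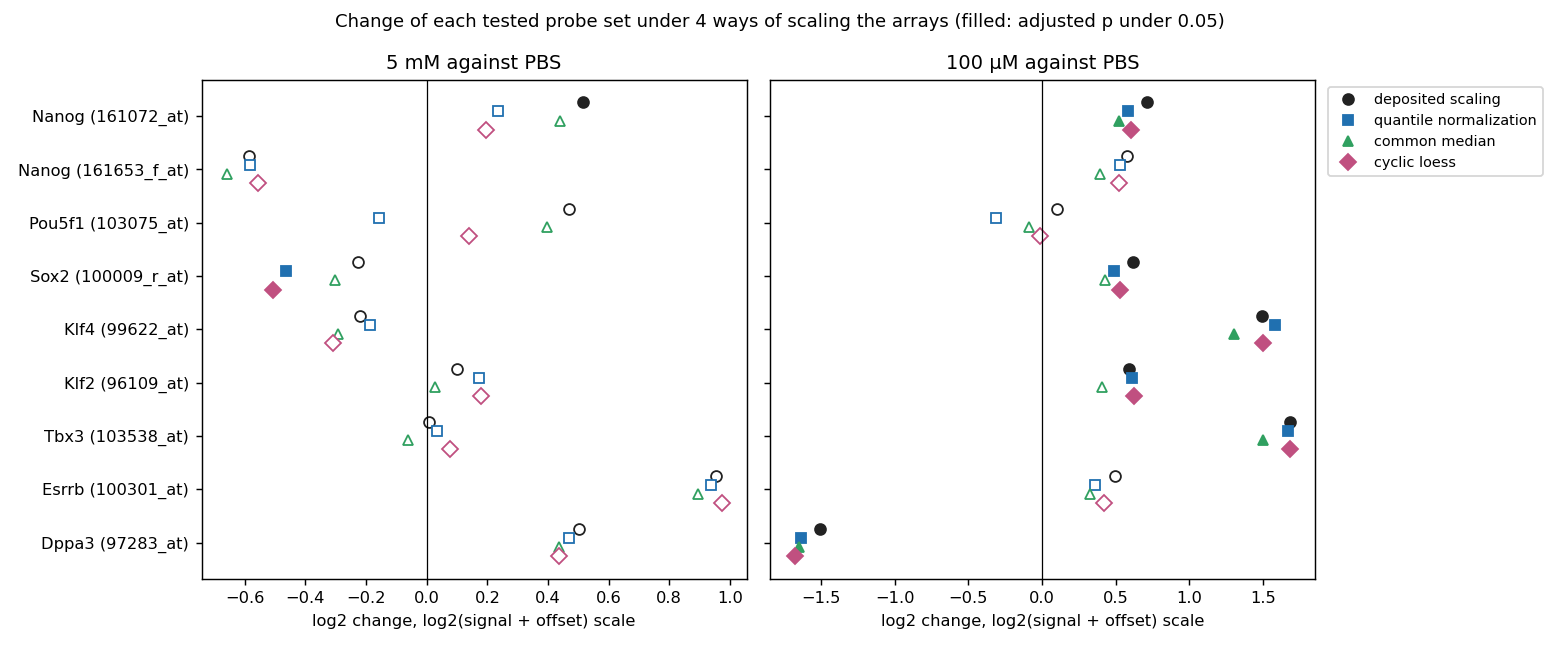
Log2 change of the 9 tested probe sets against PBS after 5 mM (left) and 100 µM (right), each with the deposited scaling and 3 others; filled symbols have an adjusted p under 0.05. Tbx3, Klf4, Dppa3 and the bright Nanog probe set stay filled under all 4 after 100 µM, while after 5 mM the filled symbols are those of Nanog with the deposited scaling and Sox2 with quantile normalization or cyclic loess.

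Set directly against each other, the treatments differed in 6 of the 9 probe sets, with 5 lower and 1 higher after 5 mM. By gene, taking the probe set with the highest mean, 4 of the 8 were lower, 1 was higher and 3 did not pass. The dim Nanog probe set is among the 5 lower ones, while the bright one did not pass. Of all tested probe sets, 27.4% were called in this comparison, 12.8% as higher and 14.6% as lower. The median log2 change was -0.49 over the 9 and -0.05 over all tested. This comparison shares its arrays with the comparisons against PBS, so its values restate the same measurements.

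Klf4 averaged 1029 ± 122 after 5 mM and 3379.7 ± 241 after 100 µM (SD, n = 5 and 4), a log2 change of -1.71 ± 0.12 (3.27-fold lower, adjusted p = 5.8e-08). Tbx3 averaged 164 ± 15.4 after 5 mM and 545 ± 45.8 after 100 µM, a change of -1.68 ± 0.12 (3.20-fold lower, adjusted p = 1.5e-07). Dppa3 averaged 121 ± 15.5 after 5 mM and 23.4 ± 9.44 after 100 µM, a change of 2.01 ± 0.20 (4.02-fold higher, adjusted p = 3.1e-06). These 3 genes had the largest differences of the set between the treatments. No array of one group reached the other in them, nor in Sox2, Klf2 and the dim Nanog probe set. How many of all tested probe sets separate in this way was not counted, so this only describes the arrays.

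Sox2 averaged 3107 ± 291 after 5 mM and 5633 ± 1009 after 100 µM, a log2 change of -0.84 ± 0.14 (1.79-fold lower, adjusted p = 2.4e-04). The dim Nanog probe set averaged 98.8 ± 11.3 after 5 mM and 246 ± 105 after 100 µM, a change of -1.17 ± 0.24 (adjusted p = 0.0018), while the bright one gave -0.19 ± 0.11 (adjusted p = 0.21) and overlapped. Both Nanog values were negative, and the bright one passed after quantile normalization (-0.35, adjusted p = 0.013) and cyclic loess (-0.41, adjusted p = 0.0049). Klf2 averaged 324 ± 22.4 after 5 mM and 469.6 ± 126 after 100 µM, a change of -0.49 ± 0.15 (adjusted p = 0.024) that lost its call without 100 µM replicate 1 (adjusted p = 0.088) or 5 mM replicate 3 (0.056). Pou5f1 (0.37 ± 0.15, adjusted p = 0.086) and Esrrb (0.46 ± 0.42, adjusted p = 0.46) did not pass. Pou5f1 passed with the common median (adjusted p = 0.026).

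Ordered by group mean, Tbx3, Sox2, Klf4 and Klf2 were highest after 100 µM, with 5 mM and PBS below and not separated by the test. Dppa3 was lowest after 100 µM, with PBS and then 5 mM above it, and those 2 did not differ by the test. The bright Nanog probe set was lowest in PBS, with the treatments above it and not separated. Pou5f1 and Esrrb were lowest in PBS and highest after 5 mM, with no neighbours in that order separated by the test. The dim Nanog probe set was highest after 100 µM and lowest after 5 mM, with PBS between and separated from neither.

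**Figure D4:**
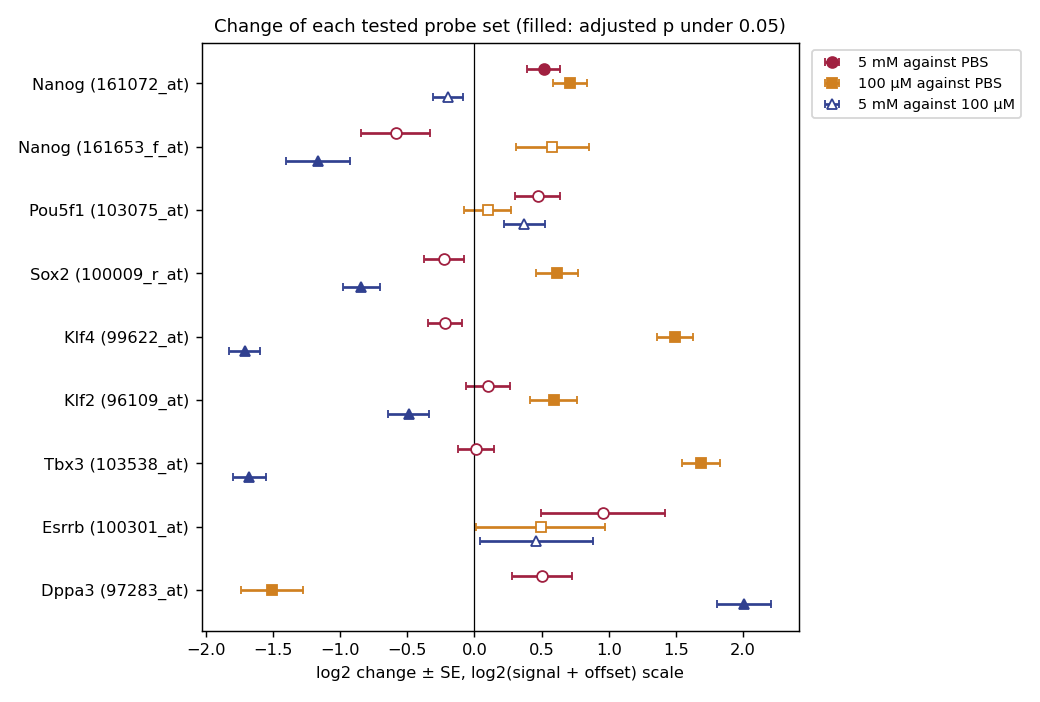
Log2 change with its SE for the 9 tested probe sets in the 3 comparisons; filled symbols have an adjusted p under 0.05. After 100 µM against PBS Tbx3 (1.69) and Klf4 (1.49) lie farthest right and Dppa3 (-1.51) farthest left, and the values of 5 mM against PBS lie between -0.59 and 0.95.

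The remaining 2 probe sets of the 8 genes fell below the filter and were not tested. That of Pou5f1, 161159_r_at (r marks probes picked under relaxed rules), read 3.80 to 55.2 after 5 mM, 5.62 to 41.0 after 100 µM and 5.43 to 24.8 in PBS. That of Klf4, 161185_i_at (i marks an incomplete probe set), read 0.459 to 10.6 after 5 mM, 0.292 to 1.53 after 100 µM and 0.872 to 1.92 in PBS. Their groups overlapped in every comparison, and the medians of the Klf4 one were below the offset in each group.

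Other transcription factors of the network split after 100 µM. Of 30 listed, 21 were measured and tested, one probe set per gene, the one with the highest mean. After 100 µM, 6 rose, 5 fell and 10 did not pass, with a median log2 change of 0.04 (0.08 over all tested probe sets). Of all tested probe sets, 24.0% were called in that comparison, 11.7% for 5 mM against PBS and 27.4% between the treatments. Nr5a2, a nuclear receptor that binds regulatory DNA of Pou5f1, averaged 612 after 100 µM and 255 in PBS, a log2 change of 1.29 ± 0.21 (adjusted p = 5.2e-04), and a dimmer probe set gave 0.21 (adjusted p = 0.66). The zinc-finger factor gene Zfx averaged 333 after 100 µM and 143 in PBS, a change of 1.17 ± 0.15 (adjusted p = 7.8e-05). Myc averaged 26.0 after 100 µM and 82.0 in PBS, a change of -1.36 ± 0.23 (adjusted p = 6.3e-04).

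After 5 mM, 1 of the 21 rose, none fell and the other 20 missed the threshold (median -0.02). It was Tfcp2l1, a factor of the naive state, at 2783 after 5 mM and 1974 in PBS (log2 change 0.51 ± 0.13, adjusted p = 0.017), whose call was lost with the common median, cyclic loess, or without PBS replicate 2 (adjusted p = 0.096) or 3 (0.091). A dimmer Tfcp2l1 probe set gave 2.42 (adjusted p = 6.2e-04). Between the treatments 7 of the 21 were higher and 6 lower after 5 mM. Foxd3, a forkhead factor gene, had a mean of 16.1 after 5 mM and 66.3 after 100 µM (-1.56 ± 0.28, adjusted p = 6.1e-04), Zfx a change of -1.21 ± 0.13 (adjusted p = 5.6e-06) and Myc a change of 0.95 ± 0.20 (adjusted p = 0.0021).

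Signals, receptors and other genes enriched in ES cells were counted the same way, with 22 of 30 tested. After 5 mM 7 rose, 3 fell and 12 did not pass (median 0.25, beside 0.01 over all tested probe sets). After 100 µM 7 rose, 1 fell and 14 did not pass (median 0.29, beside 0.08 over all). Of all tested probe sets, 11.7% were called after 5 mM and 24.0% after 100 µM against PBS, and 27.4% between the treatments. Lefty1, a Nodal inhibitor, averaged 1029 after 5 mM and 266 in PBS, a log2 change of 1.92 ± 0.13 (adjusted p = 8.9e-08). Trh, a hormone precursor gene, changed by 1.89 ± 0.19 and the corepressor gene Trim28 by 1.66 ± 0.16 after 5 mM against PBS, the last at a mean signal of 14562 after 5 mM and 4578 in PBS, and at 0.95 after quantile normalization. The 3 that fell after 5 mM were Socs3 (-1.13, adjusted p = 3.1e-04), Lifr (-0.92, 0.0020) and Fgf4 (-0.58, 0.0041). No dimmer probe set of Lifr passed in that comparison.

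After 100 µM Fbxo15, an F-box gene regulated by Pou5f1 and Sox2 in mouse ES cells, averaged 2257 with 876 in PBS, a log2 change of 1.35 ± 0.13 (adjusted p = 7.0e-06). Trim28 changed by 1.18 ± 0.16 (adjusted p = 1.6e-04), and by 0.77 after quantile normalization. Bmp4, the gene of this list that fell after 100 µM, changed by -0.74 ± 0.13 (adjusted p = 0.0012). Pecam1, a surface adhesion gene, changed by 1.27 ± 0.43 (adjusted p = 0.043), a call lost in 13 of 23 alternatives, among them without PBS replicate 2 (adjusted p = 0.12) or 3 (0.22). Between the treatments 5 were higher and 6 lower after 5 mM: Lefty1 changed by 1.95 ± 0.12, Nodal by -1.28 ± 0.15 and the LIF receptor gene Lifr by -0.99 ± 0.15, while 4 dimmer probe sets of Lifr, none of which passed, gave -0.27 to -0.10.

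**Figure D5:**
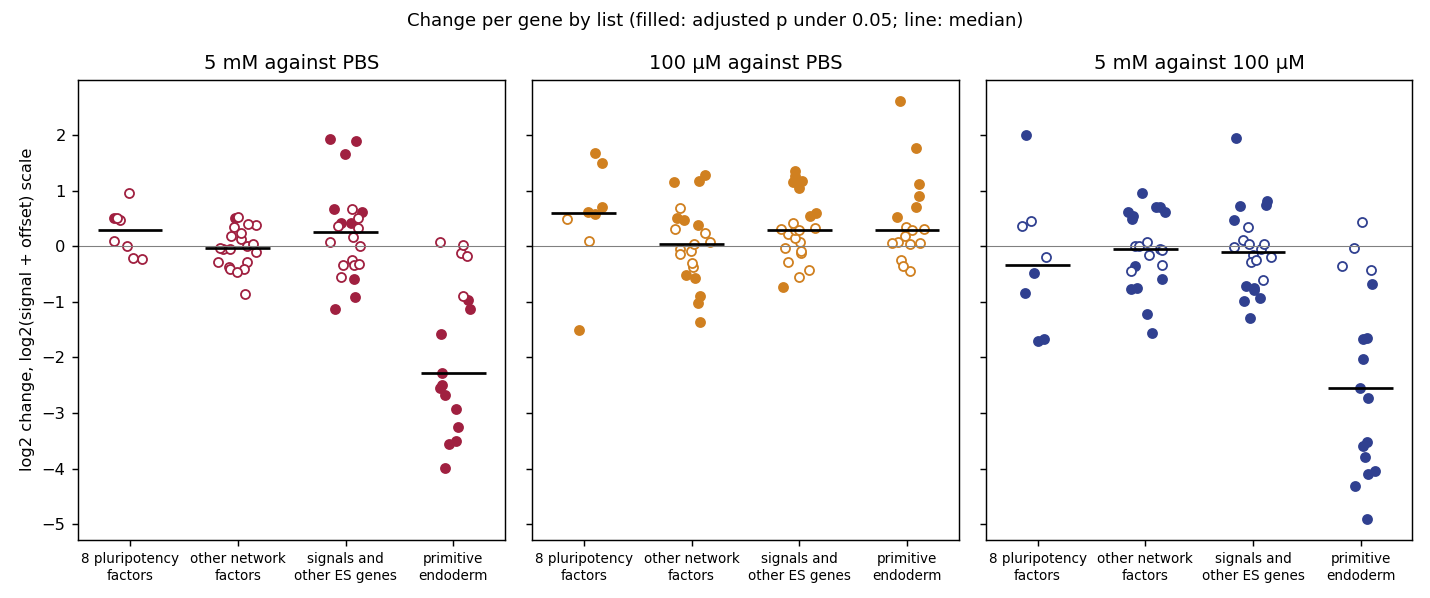
Log2 change per gene (1 probe set each) for the 8 pluripotency factors, other network factors, signals and other ES cell genes, and primitive endoderm markers in the 3 comparisons; filled points have an adjusted p under 0.05 and lines are medians. After 5 mM the endoderm markers lie far below the other lists against both PBS (median -2.27) and 100 µM (median -2.55).

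Markers of the other cell types that an ES culture can hold moved as follows. Of 17 tested primitive endoderm markers, 12 fell, none rose and 5 did not pass after 5 mM against PBS, and after 100 µM 6 rose, none fell and 11 did not pass. Their summed signal was 1819 to 2039 after 5 mM and 10814 to 11914 after 100 µM, against 7552 to 11824 in PBS. Of all tested probe sets, 11.7% were called after 5 mM and 24.0% after 100 µM against PBS, and 27.4% between the treatments. After 5 mM against 100 µM 13 of the 17 were lower, with Dab2, Gata6 and Col4a1 at -4.90, -4.31 and -4.09. Dimmer probe sets gave -2.32 and -1.62 for Dab2 and -0.98 and -0.62 for Gata6 in that comparison, the last without a call. Against PBS Dab2, an endocytic adaptor gene of this lineage, changed by -4.00 ± 0.24 after 5 mM, the collagen gene Col4a1 by -3.56 ± 0.17 and the endocytic receptor gene Cubn by -3.50 ± 0.22. After 100 µM the factor genes Foxa2 and Gata6 changed by 2.62 ± 0.34 and 1.76 ± 0.26 and the receptor gene Pdgfra by 1.11 ± 0.31, the last lost without PBS replicate 2 (adjusted p = 0.054) or with a floor in place of the offset (0.055). Dimmer probe sets gave -1.25 and -0.62 for Dab2 and 0.34 for Cubn after 5 mM, and 0.00 and 0.63 for Gata6 after 100 µM. A dimmer Pdgfra probe set gave 0.84 after 100 µM against PBS (adjusted p = 0.018).

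Of 9 tested fibroblast (feeder) markers none passed after 5 mM against PBS in limma (3 at an unadjusted p under 0.05), and Thy1, a surface glycoprotein gene, fell after 100 µM (-1.66 ± 0.29). Their summed signal was 778 to 1035 after 5 mM and 809 to 1005 after 100 µM, against 746 to 1103 in PBS, and 7 further markers were below the filter. Over all tested probe sets, 11.7% were called after 5 mM and 24.0% after 100 µM, both against PBS. None of 4 tested markers of the exit from naive pluripotency passed in any comparison in limma (1 at an unadjusted p under 0.05 for 5 mM against PBS, 2 for 100 µM against PBS and 1 for 5 mM against 100 µM). The summed signal of the 4 was 407 to 495 after 5 mM and 331 to 398 after 100 µM, against 363 to 472 in PBS. Of 9 exit markers listed, 7 were on the array and 3 of those fell below the filter, so most of the list was not tested. No marker of these lists was listed at 0 on all arrays. The part of endoderm and other cells in the values of the 8 genes was not tested.

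For each of the 8 genes, the other genes with the most similar profile over the 12 arrays were found by Pearson's r of log2 values among 6406 genes. These are descriptions with no test, since the points share arrays and groups. Tbx3 was closest to Wsb1 (r = 0.987) and Zfx (0.984), and Klf4 to Zfx (0.975) and Ablim1 (0.972). Wsb1 averaged 629 in PBS, 1641 after 100 µM and 593 after 5 mM, highest after 100 µM as Tbx3 was. Dppa3 was closest to Phlda2 (0.968) and Polr1c (0.966), of which Phlda2 averaged 1178 in PBS, 485 after 100 µM and 1404 after 5 mM. Sox2 was closest to Impa1 (0.954) and the chaperone gene Hspa5 (0.949), and Nanog to Ccdc90b (0.945) and Nek2 (0.9395). Klf2 was closest to Pigf (0.937) and Blzf1 (0.908), Esrrb to Rara (0.9298) and Cln3 (0.907), and Pou5f1 to Cotl1 (0.913) and Grb10 (0.905).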

How the data were processed

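Expression was measured on 12 MG_U74Av2 arrays. The authors' deposited values are an intensity per probe set and array on a linear scale, and per the submitters' processing notes they are MAS5 signals; the version and scaling target were not stated there. The deposited arrays shared a 2% trimmed mean to within 0.0195%, so their scaling was kept. From these, log2(signal + 10.1) was computed, the offset being the 20th percentile of all values. The 66 control probe sets were left out, and probe sets above the 30th percentile of mean log2 value were tested (8695). Group means over the 12 arrays were estimated in 1 model (limma 3.58.1, R 4.3.3, eBayes with a trend); p-values are two-sided, adjusted by the Benjamini-Hochberg method over all tested probe sets, with 0.05 as the threshold. The steps were tested on simulated data. Arrays have no read depth, and their number limits the precision.

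Names came from the platform annotation, updated by Entrez number through RefSeq (GRCm38.p6): 10833 probe sets had 1 symbol (10817 matched), 396 several and 1193 were not listed. Groups came from the sample titles. The genes, lists (8 pluripotency factors, other network factors, ES cell signals, exit, primitive endoderm, trophectoderm, mesoderm and ectoderm, and fibroblast markers) and the rule for named genes were chosen with earlier results of these data known. That rule takes every probe set of the 8 genes, up to 3 genes with the largest called change per list and comparison, and the 2 closest profiles per gene; others were named after their values were seen. Alternatives were quantile, common-median and cyclic loess scaling, a floor, 4 times the offset, no filter, a filter at the 50th percentile, no trend, array weights, only the groups compared, a replicate block, and each array left out.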

Additional observations from a re-analysis of the deposited data

Results flagged for a closer look

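In 4 of 22 groups of 4 or 5 arrays, 1 array of a probe set of the 8 genes lay far from its nearest neighbour relative to the whole range of its group. About 1 in 20 groups shows this by chance. The dim Nanog probe set 161653_f_at read 402 on 100 µM replicate 1, above 179 to 214 on the other 3 arrays. Klf4 99622_at read 3737 on 100 µM replicate 2, above 3232 to 3306 on the others, a small step against its distance from PBS. The untested Pou5f1 probe set 161159_r_at read 55.2 on 5 mM replicate 5, and the untested Klf4 probe set 161185_i_at read 10.6 on 5 mM replicate 1, about the offset.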

How the results depend on the processing

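For the 9 tested probe sets in 3 comparisons, 309 of 324 values with 1 array left out and 277 of 297 under the other alternatives kept their direction and their side of the threshold. Part of these values could not change direction. Leaving out an array of the group outside the comparison can move the p-value but not the log2 value. The same holds for changing only the filter, the trend or the groups fitted. Values that changed sign were all without a call. Pou5f1 after 100 µM against PBS became -0.31 with quantile normalization, -0.0904 with the common median, -0.0132 with cyclic loess, -0.028 with array quality weights, and ran from -0.084 to 0.25 with 1 array left out. After 5 mM against PBS Pou5f1 became -0.16 with quantile normalization, Tbx3 -0.0618 with the common median and -0.0623 to 0.0984 with 1 array left out, and Klf2 -0.0066 to 0.1608 with 1 array left out. Esrrb after 100 µM against PBS ran from -0.11 to 0.92 with 1 array left out. Values with no call that kept their sign but moved widely with 1 array left out were Esrrb (0.35 to 1.28) and the dim Nanog probe set (-0.90 to -0.35) after 5 mM against PBS, that probe set after 100 µM against PBS (0.27 to 0.82), and Esrrb between the treatments (0.03 to 0.81). The cause of these changes was not tested.

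The count of called probe sets of the 8 genes after 5 mM against PBS, 1, was 0 with the common median and 0 to 2 with 1 array left out. In the other comparisons both counts stayed within 1.5 times their values in the report. The count of all called probe sets in that comparison, 1018, was 1655 with array quality weights and 490 to 1012 with 1 array left out. With a replicate block it was 597. Deviations of same-numbered arrays from their group means correlated at -0.18 to 0.15 (10 pairs, 2 above 0.1). Those of differently numbered arrays correlated at -0.16 to 0.18 (37 pairs, 5 above 0.1). The numbers gave no sign of pairing, though so few arrays cannot exclude it. With the block Klf2 did not pass against PBS after 100 µM (adjusted p = 0.057) or between the treatments (0.065), and Tfcp2l1 (0.065) and Sox11 (0.065) did not pass after 5 mM against PBS. The dim Nanog probe set after 100 µM against PBS passed with array quality weights (adjusted p = 0.040). Probe sets near the offset, such as Dppa3 after 100 µM, have sizes that depend on it.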

Other observations

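Some markers of other embryonic lineages passed the test. Of 7 tested mesoderm and ectoderm markers 2 fell after 100 µM against PBS and 5 did not pass, and of 6 tested trophectoderm markers 2 fell and 4 did not pass. Of all tested probe sets, 24.0% were called in that comparison, 11.2% as lower. The lists are too short to compare with these shares. The medians of the 7 and the 6 markers were 0.13 and -0.03, beside 0.08 over all. Gbx2, a homeobox gene of the anterior hindbrain that is also known as a target of LIF and Stat3 in mouse ES cells, averaged 113 after 100 µM and 477 in PBS (SE of the log2 change 0.18, adjusted p = 3.6e-06), 3.995-fold lower. Sox11, a factor gene of neural progenitors, averaged 109 after 100 µM and 261 in PBS, a change of -1.12 ± 0.24 (adjusted p = 0.0033), and 469 after 5 mM, a change of 0.88 ± 0.23 against PBS (adjusted p = 0.020) that was lost without PBS replicate 2 (0.108) or 3 (0.107). A dimmer Sox11 probe set did not pass after 100 µM (-0.52, adjusted p = 0.14) and gave 0.76 after 5 mM (adjusted p = 0.045), both against PBS. Gbx2 after 5 mM against PBS had -0.56 ± 0.17 (adjusted p = 0.045), a call lost in 15 of 23 alternatives. Between the treatments both were higher after 5 mM, Sox11 by 1.99 ± 0.21 and Gbx2 by 1.44 ± 0.16. In all, 1 of 7 was higher and 1 lower after 5 mM against PBS, where 11.7% of all tested probe sets were called.

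Of 6 tested trophectoderm markers, 1 rose and 2 fell after 5 mM against PBS, where 11.7% of all tested probe sets were called. The keratin genes Krt18 and Krt8 changed by -1.70 ± 0.23 and -1.58 ± 0.18 after 5 mM, and Tfap2c by 0.62 ± 0.19 (adjusted p = 0.046, lost in 14 of 23 alternatives). After 100 µM Ascl2, an imprinted helix-loop-helix gene, averaged 41.7 with 132 in PBS, a change of -1.54 ± 0.30 (adjusted p = 0.0020), and Krt18 changed by -0.91 ± 0.24 (lost without PBS replicate 1, adjusted p = 0.064). Between the treatments Ascl2 averaged 125 after 5 mM and 41.7 after 100 µM (adjusted p = 5.6e-04), Krt8 changed by -1.44 ± 0.17 and Krt18 by -0.79 ± 0.21, and the fibroblast markers Thy1 and Timp3 changed by 1.67 ± 0.26 and -1.15 ± 0.37, the last lost in 4 of the 12 fits that left out 1 array.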
